A study of Mus musculus with 33 samples.

Results

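Type I interferon-stimulated genes (ISGs) are the genes that cells switch on when interferon-α or interferon-β binds its receptor. A list of 39 of them was followed by gene symbol among the 24421 genes counted in 33 bulk RNA-seq samples of sorted Kupffer cells (KCs) and alveolar macrophages (AMs), with and without deletion of the transcription factor Zeb2. All 39 symbols were found in the files. The list is a list of gene symbols, and no count or test of these samples enters the rule that defines it. The symbols were, however, chosen with earlier results of these data known, so the choice was not blind to them. In the pathway, the receptor IFNAR activates the kinases JAK1 and TYK2, which phosphorylate STAT2 among others. STAT2 and IRF9 are parts of ISGF3, a complex that binds the interferon-stimulated response element (ISRE) in the promoters of ISGs. The products include sensors of viral RNA, enzymes that degrade or trap it, the ubiquitin-like modifier ISG15, and the pathway's own transcription factors IRF7, IRF9 and STAT2, through which a weak signal is amplified. Resident macrophages keep some of these genes on in the absence of infection, under low tonic interferon signaling.

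KCs are the resident macrophages of the liver and AMs those of the lung airspace. Control (CRE-) cells came from Zeb2fl/fl mice, with 6 KC samples and 5 AM samples. In Clec4f-crexZeb2fl/fl mice, where the Clec4f promoter drives CRE in KCs, and where a reporter of the same CRE also marked a few B cells, the KC sort gave 6 Tim4+ samples and 6 Tim4- samples. In Itgax-crexZeb2fl/fl mice, where the CD11c promoter drives CRE in AMs and in other CD11c-expressing cells, the AM sort gave 5 CD11b- samples and 5 CD11b+ samples. All groups carried the floxed Zeb2 allele, and the mice were 6 to 8 weeks old, of both sexes, with littermate controls. The deleted allele still gives a truncated Zeb2 transcript, and some CRE+ cells keep a Zeb2 copy, so a CRE+ sort can mix deleted and undeleted cells.

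The ISRE is the sequence through which these genes are known to answer interferon, so the promoters of 5 of them are shown: 4 that hold it and Oasl2, the ISG with the largest rise in CD11b+ AMs of CRE+ mice. Each sequence is the 130 bases before the transcription start given by RefSeq (GRCm38.p6), read 5′ to 3′ on the gene's strand. Capitals mark an ISRE core, GAAA followed by any 2 bases and a second GAAA, or its reverse complement. Isg15 encodes the ubiquitin-like modifier ISG15 and lies on the minus strand, with the window at chr4:156200819-156200948. Ifit1, which encodes a protein that holds viral RNA lacking a normal cap, lies on the plus strand with its window at chr19:34640759-34640888. Oas3, an enzyme that makes 2′-5′ oligoadenylates on double-stranded RNA, lies on the minus strand with its window at chr5:120777660-120777789. Rsad2 encodes viperin, an enzyme that makes a chain-ending nucleotide, and lies on the minus strand with its window at chr12:26456453-26456582. Oasl2, an OAS-like protein, lies on the plus strand with its window at chr5:114896804-114896933.
Isg15: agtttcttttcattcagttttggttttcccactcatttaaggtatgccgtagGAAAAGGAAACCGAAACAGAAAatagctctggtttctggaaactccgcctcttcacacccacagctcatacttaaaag
Ifit1: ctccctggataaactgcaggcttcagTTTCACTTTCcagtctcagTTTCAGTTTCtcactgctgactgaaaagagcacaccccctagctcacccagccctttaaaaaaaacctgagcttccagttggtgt
Oas3: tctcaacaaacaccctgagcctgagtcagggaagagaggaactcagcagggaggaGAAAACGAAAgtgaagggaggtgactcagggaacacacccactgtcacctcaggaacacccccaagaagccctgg
Rsad2: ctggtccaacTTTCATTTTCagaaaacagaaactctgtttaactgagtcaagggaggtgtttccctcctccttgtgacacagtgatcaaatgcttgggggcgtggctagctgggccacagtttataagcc
Oasl2: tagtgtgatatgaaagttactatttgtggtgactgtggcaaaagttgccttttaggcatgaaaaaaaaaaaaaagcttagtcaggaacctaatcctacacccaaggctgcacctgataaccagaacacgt

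The Isg15 window held 3 overlapping copies of this core, the Ifit1 window 2, those of Oas3 and Rsad2 1 each, and that of Oasl2 none. RefSeq promoters of 300 bases (250 before and 50 after the start) were matched for 29 of the 39 ISGs. Searched on both strands, the core was in the promoters of 13 of the 29 (44.83%), compared with 3.99% of the 27025 genes with a promoter in the same table. The 13 were Stat2, Ddx58, Ifih1, Eif2ak2, Oas1a, Oas3, Ifit1, Ifit3, Rsad2, Bst2, Isg15, Trim30a and Trim30d. Dhx58, Zbp1, Oas2, Mx1, Mx2, Usp18, Parp9, Parp14, Rtp4 and Ifi27l2a had no entry in the table.

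The gene counts of a sample summed to between 9837240 and 24332306 reads. Levels are given as CPM, read counts scaled to the size of each library, here adjusted by the trimmed mean of M values (TMM). A gene was called higher or lower with an adjusted p-value under 0.05 in edgeR's quasi-likelihood test over all genes tested. Zeb2 had a mean of 282 CPM in CRE- KCs, 174 in Tim4+ KCs, 169 in Tim4- KCs, 195 in CRE- AMs, 105 in CD11b- AMs and 62.5 in CD11b+ AMs. Clec4f, which marks KCs, had a mean of 10892 CPM in CRE- KCs and 0.274 in CRE- AMs, Timd4, which encodes Tim4, had 381 CPM in Tim4+ and 2.80 in Tim4- KCs, and Itgam, which encodes CD11b, had 17.7 CPM in CD11b- and 265 in CD11b+ AMs. Among the KCs, replicate 1 of both CRE+ sorts stood apart for these ISGs: it was the lowest of its 6 samples for 34 of the 39 in Tim4+ and for 35 of the 39 in Tim4- cells. The Tim4- replicate 1 also had the fewest reads of the series. The calls and medians of the KC comparisons are therefore given with and without both libraries. Xist is expressed in female and Ddx3y in male cells. KC replicates 5 and 6 of each group had no Xist counts and 1304 to 1720 Ddx3y counts. Replicates 1 to 4 and all AM samples had Xist counts and at most 3 Ddx3y counts. By these genes no AM sample was male, so sex was not balanced between the tissues.

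In CRE- mice, the ISGs were far higher in KCs than in AMs. Their CPM summed to between 3756 and 5841 in the 6 CRE- KC samples and to between 737 and 866 in the 5 CRE- AM samples. Of the 39 ISGs, 38 were higher in KCs and 1, Trim25, was lower, where 33.3% of the 12145 genes tested were higher and 29.9% lower. The median log2 fold change was 3.01 over the ISGs and 0.03 over all genes tested, and 37 of the 38 were more than 2-fold higher, where 20.9% of all genes were. Ifi35, a leucine-zipper protein induced by interferon, was the exception at 0.77.

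The largest difference was in Ifi44, an interferon-induced protein with a GTP-binding motif. Ifi44 had 24.4, 35.4 and 53.6 CPM in CRE- KCs (lowest, median and highest of 6), and a single count in AM replicate 1 with none in the other 4 samples. Its log2 fold change was 11.22 (SE 0.43, adjusted p = 1.60e-11), and from 4582 counts against 1 the ratio was 3764, with a 95% counting interval of 675 to 148693. Mx2, a GTPase of the dynamin family that blocks virus replication, was low in KCs, with 1.97, 3.33 and 3.72 CPM, and had 0 counts in every CRE- AM sample. Against a floor of 3 counts over the group it was at least 109-fold higher in KCs (log2 fold change 9.06, SE 0.69, adjusted p = 8.58e-07, whose size depends on the small count the fit adds). Usp18, the protease that removes ISG15 and damps signaling at IFNAR, had 43.5, 72.8 and 89.6 CPM in KCs and 0.493, 0.0489, 0.647, 0.193 and 0.562 CPM in the 5 AM samples. Its log2 fold change was 7.52 (SE 0.34, adjusted p = 9.84e-11).

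The gap between the tissues differed among the families. It was widest in the Mx genes (log2 fold changes of 7.11 and 9.06), the IFIT genes (4.83 to 6.88) and the 2′-5′ oligoadenylate synthetase family (3.01 for Oas1a to 7.23 for Oasl2), and in Irf7, the factor that drives late interferon production, at 7.29. Irf7 had 477, 786 and 1067 CPM in CRE- KCs and 4.57, 3.91, 5.87, 3.99 and 7.26 CPM in CRE- AMs. Rsad2 (6.17), its neighbour Cmpk2 (5.78), a mitochondrial nucleotide kinase, Rtp4 (6.56) and Ifi27l2a (5.66) also differed by over 5 on the log2 scale. The cytosolic nucleic acid sensors and their regulators differed less, with 1.37 for Ddx58 (RIG-I), 1.78 for Eif2ak2 (PKR), 1.79 for Ifih1 (MDA5), 2.13 for Dhx58 (LGP2) and 2.59 for the Z-nucleic-acid sensor Zbp1. The ADP-ribosyltransferase genes Parp9, Parp12 and Parp14 and their partner ligase Dtx3l lay in the same range, from 1.37 to 2.18. Irf9 (2.20) and Stat2 (2.60), the DNA-binding parts of ISGF3, differed much less than Irf7.

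The other members filled the range between. Helz2, a helicase, differed by 4.61, Xaf1 by 3.99, Isg15 by 3.85, Bst2, which encodes tetherin, by 2.83, Trim30a by 2.58, Trim30d by 2.17, Samd9l by 2.01, Herc6, the mouse ISG15 ligase, by 1.78 and the exonuclease Isg20 by 1.44. Trim25, the ubiquitin ligase that acts on RIG-I, ran the other way, with 97.5, 113 and 188 CPM in KCs and 230, 217, 275, 278 and 241 CPM in AMs (log2 fold change -0.93, SE 0.15, adjusted p = 8.96e-05). For each of the 39 genes the 6 KC samples and the 5 AM samples did not overlap, where 25.1% of all genes did not overlap on the KC side and 23.8% on the AM side. With KC replicates 1 to 4 alone, which had Xist counts as the AM samples had, the calls were again 38 higher and 1 lower, where 30.7% and 28.2% of all genes were. Markers of other cells differed too. Liver endothelial markers summed to 501 to 1511 CPM in CRE- KCs and 1.25 to 3.18 CPM in CRE- AMs. Hepatocyte markers summed to 135 to 373 and 0 to 0.358 CPM. Dendritic cell, B cell and T cell lists were 2.92, 1.68 and 1.97 higher in KCs in mean log2 CPM, and lung epithelial markers 4.11 lower. Exact permutation tests gave each an adjusted p of at most 0.0185. The part of such cells in the ISG levels was not tested. The tissue and everything that differed between liver and lung preparations cannot be told apart in this comparison.

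**Figure D1:**
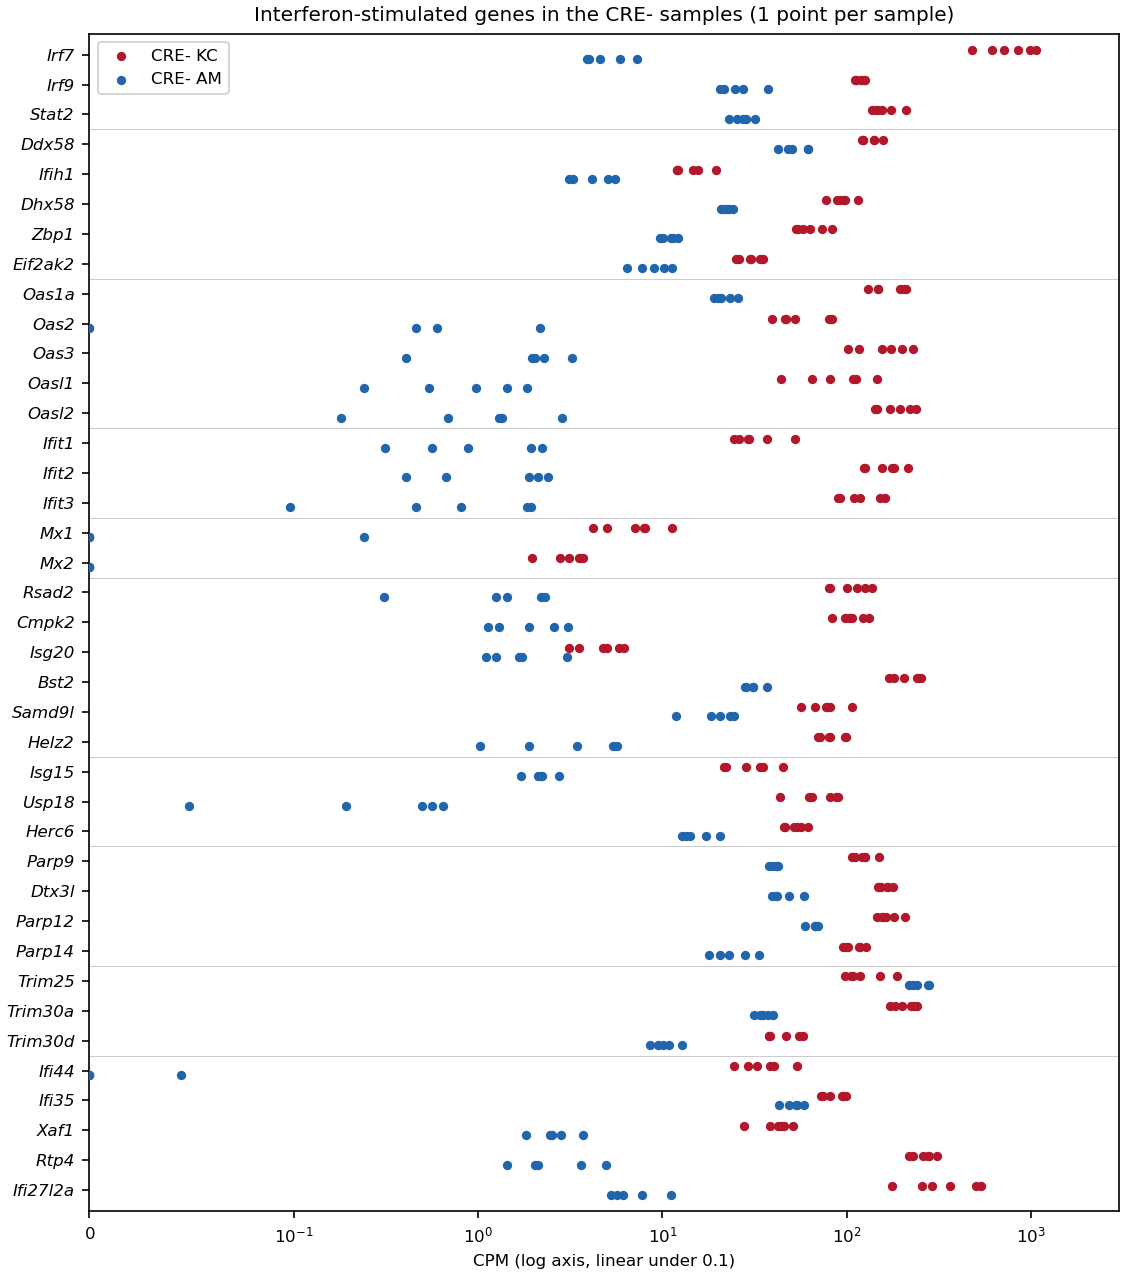
CPM of each of the 39 ISGs (rows) in the CRE- KC and CRE- AM samples, with 1 point per sample, on an axis that is logarithmic above 0.1 CPM and linear below it. For Trim25 the AM samples lie above the KC samples, and for the other 38 genes the KC samples lie above the AM samples.

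In the lung, many ISGs that were low in CRE- AMs rose in CD11b+ AMs of CRE+ mice. Mx1, Mx2 and Ifi44 were too low in AMs to test, which left 36 of the 39. Of these, 19 were higher and 1 was lower in CD11b+ than in CRE- AMs, where 22.8% of the 11573 genes tested were higher and 20.5% lower. More than 2-fold higher were 13 of them, where 9.57% of all genes were. The median log2 fold change was 0.77 over the 36 ISGs and -0.0052 over all genes. In 15 of the 36, every CD11b+ sample lay above every CRE- sample, where 18.5% of all genes did.

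Oasl2 of the OAS family rose most. It had 0.179, 0.685, 1.34, 1.30 and 2.86 CPM in the 5 CRE- AM samples and 96.5, 51.0, 75.2, 94.3 and 74.9 CPM in the 5 CD11b+ samples. The log2 fold change was 5.95 (SE 0.38, adjusted p = 1.09e-10). Every CD11b+ sample was more than 10 times the highest CRE- sample. Usp18 rose from 0.493, 0.0489, 0.647, 0.193 and 0.562 CPM to 11.3, 6.64, 7.45, 5.79 and 4.32 CPM (log2 fold change 4.16, SE 0.47, adjusted p = 5.34e-07). Oas3 rose from 0.403, 1.96, 2.03, 2.26 and 3.22 CPM to 40.1, 25.8, 37.6, 33.02 and 29.0 CPM (4.06, SE 0.41, adjusted p = 9.21e-08). All 3 genes were near the detection limit in CRE- AMs and separated the groups without overlap.

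The 3 transcription factors of the list rose together in CD11b+ AMs. Irf7 went from the values given above to 31.4, 20.3, 30.2, 23.2 and 19.0 CPM (log2 fold change 2.27), Irf9 rose by 0.82 and Stat2 by 0.60. Among the nucleic acid sensors Zbp1 (1.42) and Ddx58 (0.75) rose, whereas Eif2ak2 (0.01), Dhx58 (0.03) and Ifih1 (-0.24) were not called. In the OAS family 4 of 5 rose, with Oas1a at 1.0 and Oasl1 at 1.52 beside Oas3 and Oasl2, and Oas2 (1.84) was not called, its CD11b+ samples running from 0.102 to 3.36 CPM. Ifit1 (1.37) and Ifit2 (1.73) rose, and Ifit3 (1.06) was not called.

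Of the other effectors, Isg20 (1.62), Rsad2 (1.59), Rtp4 (1.60), Isg15 (1.15), Dtx3l (0.78), Bst2 (0.40) and Parp9 (0.38) rose. Isg15 itself went from 1.70, 2.20, 2.22, 2.12 and 2.76 CPM to 5.49, 4.19, 6.67, 4.25 and 4.09 CPM, so that each CD11b+ sample lay above each CRE- sample, at a level that stayed low. Not called were Cmpk2 (0.90), Xaf1 (0.67), Ifi27l2a (0.58), Helz2 (0.53), Herc6 (0.52), Parp14 (0.39), Trim30d (0.35), Parp12 (0.16), Ifi35 (0.15), Trim30a (0.14) and Samd9l (-0.14). Trim25, which was higher in AMs than in KCs to begin with, was the single gene that fell, to 165, 197, 224, 215 and 161 CPM (log2 fold change -0.38, SE 0.13, adjusted p = 0.0225). Its samples overlapped with the CRE- values, and it lost its call in 5 alternative analyses.

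**Figure D2:**
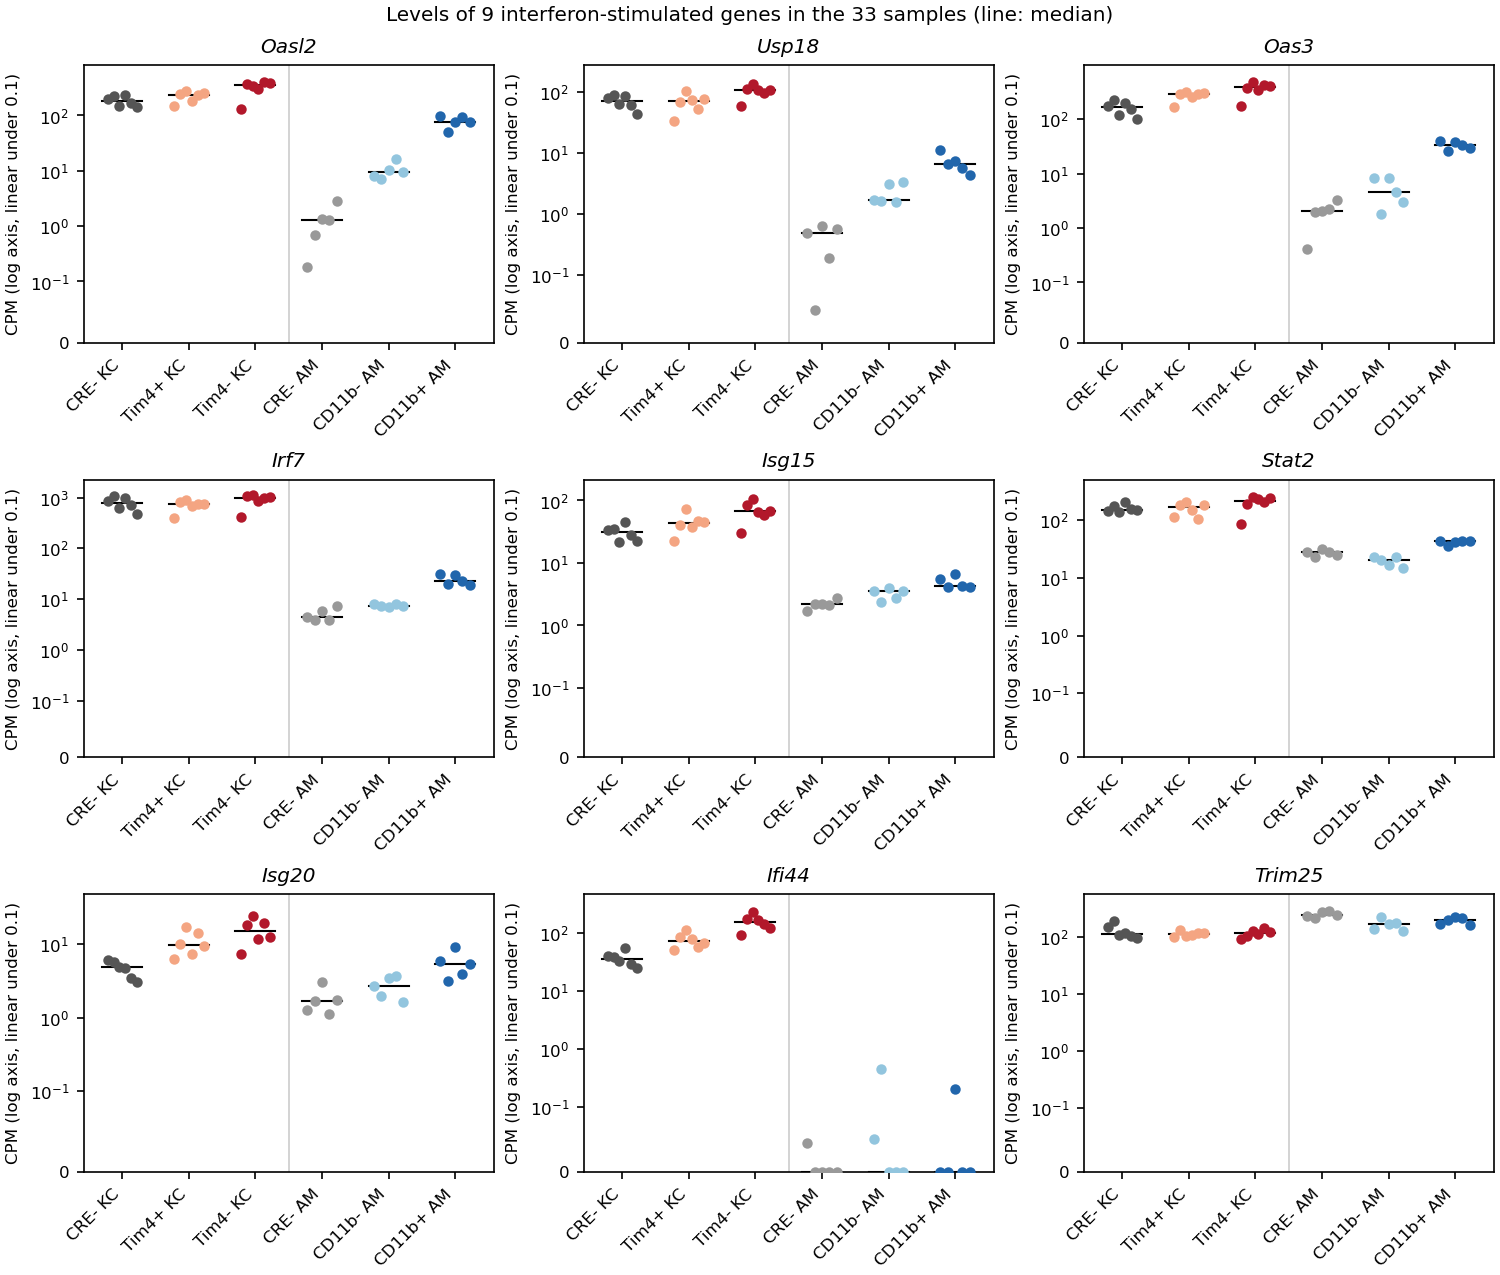
CPM of 9 ISGs in every sample of the 6 groups, 1 panel per gene, on an axis that is logarithmic above 0.1 CPM and linear below it, with a line at each group median. Oasl2, Usp18 and Irf7 are higher in CD11b- than in CRE- AMs and higher again in CD11b+ AMs, where Oasl2 runs from 51.0 to 96.5 CPM.

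CD11b- AMs of CRE+ mice had fewer ISGs called. Against the same CRE- samples, 6 of 36 ISGs were higher and 3 lower, where 13.3% of the 11573 genes were higher and 12.4% lower. That share of higher genes is close to the background, and the median log2 fold change was 0.17 over the ISGs and 0.0027 over all genes. Called higher and more than 2-fold were 3, where 3.98% of all genes were. They were Oasl2, Usp18 and Oas3, as in CD11b+ cells, but both comparisons use the same CRE- samples. Oasl2 had 8.12, 7.11, 10.2, 16.1 and 9.39 CPM in CD11b- AMs (log2 fold change 3.01, SE 0.37, adjusted p = 5.62e-06). Usp18 had 1.72, 1.68, 3.18, 1.56 and 3.43 CPM (2.55, SE 0.46, adjusted p = 0.000381). For both genes every CD11b- sample lay above every CRE- sample. Oas3 had 8.17, 1.80, 8.19, 4.57 and 2.98 CPM (1.38, SE 0.40, adjusted p = 0.0149), and its samples overlapped with CRE- AMs.

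Oas1a (0.86), Irf7 (0.57) and Parp12 (0.20) were the other ISGs called higher in CD11b- AMs. Trim30d, a TRIM protein of mouse macrophages, Trim25 and Stat2 fell. Trim30d had 12.8, 8.56, 10.03, 9.43 and 10.9 CPM in CRE- AMs and 5.33, 6.05, 7.82, 7.17 and 7.85 CPM in CD11b- AMs, without overlap (log2 fold change -0.60, SE 0.17, adjusted p = 0.0133). Trim25 had 140, 226, 169, 174 and 127 CPM in CD11b- AMs (-0.57, SE 0.13, adjusted p = 0.00280). Stat2 had 27.5, 22.9, 31.7, 28.3 and 25.3 CPM in CRE- and 23.1, 20.8, 17.0, 23.1 and 14.7 CPM in CD11b- AMs (-0.46, SE 0.13, adjusted p = 0.0118). For Trim25 1 CD11b- sample and for Stat2 2 CD11b- samples lay inside the CRE- range. In all, 4 of the 36 lay without overlap above the CRE- samples (Oas1a, Oasl2, Usp18 and Parp12) and 1 below (Trim30d), where 9.42% and 8.59% of all genes did. Mx2 and Ifi44 gave a few counts in some CRE+ AM samples. Mx2 had 0, 11, 11, 0 and 0 counts in the 5 CD11b- and 4, 0, 0, 3 and 5 in the 5 CD11b+ samples, with 0 in every CRE- sample. Ifi44 had 1, 11, 0, 0 and 0 counts in CD11b- and 0, 0, 4, 0 and 0 in CD11b+ samples, with 1 count in all in CRE- AMs, so that a single library held most of its counts in each CRE+ group. Markers of other cells moved with this comparison as well: on the mean log2 CPM scale, neutrophil markers were 4.40 higher in CD11b- than in CRE- AMs (806 to 2426 against 36.1 to 60.3 CPM in sum), lung epithelial markers 2.16 higher (317 to 390 against 94.1 to 138 CPM), liver endothelial markers 1.56 higher (3.86 to 13.8 against 1.25 to 3.18 CPM) and B cell markers 1.26 lower (1.92 to 4.74 against 5.27 to 8.57 CPM), each with an adjusted p of 0.0185 in an exact permutation test. Members of a list did not all move alike. From CRE- to CD11b- AMs, mean S100a8 went from 4.51 to 719 CPM and S100a9 from 0.0961 to 508 CPM. Cxcr2 and Csf3r also rose, but Mmp9 (0.0670 and 0.0101 CPM) and Retnlg (0.0462 and 0.0420 CPM) did not. In the lung epithelial list, Krt8 went from 0.160 to 57.3 CPM and Cdh1 from 94.0 to 271 CPM. The surfactant gene Sftpc went from 13.6 to 18.9 CPM, and Ager was lower. The part of such cells in the ISG levels was not tested.

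Set directly against each other, the sorts of the CRE+ lung differed. Of 36 ISGs, 14 were higher in CD11b+ than in CD11b- AMs and 0 lower, where 19.8% of all genes were higher and 16.6% lower. At an unadjusted p under 0.05 edgeR had 20 higher and 0 lower, where 24.2% and 20.7% of all genes were, limma-voom had 19 and 0 (25% and 20.7% of all genes) and DESeq2 21 and 0 (24.6% and 21.1%). The median log2 difference was 0.62 over the ISGs and 0.02 over all genes, and 12 of the 36 lay above without overlap, where 15.3% of all genes did, and 0 below, where 10.6% did. More than 2-fold higher were 8, where 6.85% of all genes were, and 0 more than 2-fold lower, where 3.30% were. Oasl2 (log2 fold change 2.94, SE 0.31, adjusted p = 3.54e-07), Oas3 (2.68, SE 0.37, adjusted p = 1.36e-05) and Irf7 (1.70, SE 0.18, adjusted p = 5.98e-07) had the largest differences. Irf7 was 8.07, 7.52, 7.16, 7.93 and 7.30 CPM in CD11b- AMs, a narrow range well under the lowest CD11b+ value of 19.0. Stat2 differed by 1.06, with 43.0, 35, 42.2, 43.5 and 43.6 CPM in CD11b+ cells, and Trim30d by 0.95, both being lower in CD11b- than in CRE- AMs. Usp18 (1.60), Zbp1 (1.15), Rtp4 (1.08), Isg20 (1.03), Parp14 (0.80), Ddx58 (0.67), Dtx3l (0.64), Herc6 (0.63) and Irf9 (0.48) were the others called. The IFIT genes were not, with differences from 0.32 to 0.79.

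Markers of other cells moved with the CD11b sort. Neutrophil markers (6 of 7 in the files, Ly6g among those not found) summed to between 8224 and 10462 CPM in CD11b+, 806 to 2426 in CD11b- and 36.1 to 60.3 in CRE- AMs, and the mean log2 CPM of the list was 8.43 higher in CD11b+ than in CRE- AMs (exact permutation test, p = 0.00794, the smallest that 5 against 5 samples allow, adjusted p = 0.0185). S100a8 and S100a9 made up most of it. Monocyte markers (7 of 7) were 3.32 higher on that scale (adjusted p = 0.0185), with Ly6c2 at a mean of 0.267 CPM in CRE- and 114 in CD11b+ AMs and Vcan at 0, although their sum, led by Fn1, ran from 369 to 707 CPM against 600 to 1059 CPM. T cell markers (6 of 6) were 1.76 higher (5.35 to 13.9 against 1.48 to 4.02 CPM), KC markers (8 of 8) 1.71 higher (6.51 to 29.1 against 5.27 to 8.37 CPM) and liver endothelial markers (6 of 6) 2.02 higher (25.8 to 41.8 against 1.25 to 3.18 CPM), each with an adjusted p of 0.0185 in the same exact permutation test. The liver endothelial sum was mostly Lyve1, at means of 0.118 CPM in CRE- and 31.6 CPM in CD11b+ AMs, while Stab2 went from 0.0182 to 0 and Kdr from 1.47 to 1.31. In the KC list Folr2 went from 0.0583 to 6.71 CPM, while Clec4f went from 0.274 to 0.0227 and Clec1b from 5.71 to 1.60. AM markers (8 of 8) were 0.45 lower on that scale (adjusted p = 0.0185), although their sum was higher, at 41058 to 56169 against 19724 to 30372 CPM. Dendritic cell markers (5 of 5) were 2.54 higher and summed to at most 18.8 CPM. Markers of plasmacytoid dendritic cells (6 of 6), the cells that make most interferon-α, were 2.07 higher (adjusted p = 0.0185) and summed to between 15.99 and 29.0 CPM in CD11b+ against 7.24 to 14.6 CPM in CRE- AMs. Of them Siglech was at 0.0122 CPM and Klk1 at 0 in CD11b+ AMs. Lung epithelial markers (8 of 8) were 2.75 higher, with the keratin Krt8 at means of 0.160 and 563 CPM and the surfactant gene Sftpc at 13.6 and 23.6 CPM in CRE- and CD11b+ AMs. The part of such cells in the ISG levels was not tested, and in bulk samples more cells of a type and more RNA per cell cannot be told apart. CD11b+ AMs also had the lowest TMM factors of the series (0.869 to 0.903, against 0.990 to 1.06 elsewhere).

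In the liver, the changes were small beside the high level of the ISGs in CRE- KCs. Tim4- KCs of CRE+ mice had 16 ISGs higher and 1 lower than CRE- KCs of 39 tested, where 12.2% of the 12500 genes tested were higher and 13.2% lower. The median log2 fold change was 0.30 over the ISGs and -0.03 over all genes, and 33 of the 39 were positive. More than 2-fold higher were 4 (Ifi44, Isg20, Oas3 and Isg15), where 3.43% of all genes were, and 0 more than 2-fold lower, where 5.39% were. In 2 of the 39, Isg20 and Ifi44, every Tim4- sample lay above every CRE- sample, where 5.68% of all genes did, and 0 lay below without overlap, where 5.14% did.

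Ifi44 rose most, from 24.4, 35.4 and 53.6 CPM in CRE- KCs to 91.4, 154 and 229 CPM in Tim4- KCs (log2 fold change 2.07, SE 0.22, adjusted p = 8.18e-07). Isg20, a 3′ to 5′ exonuclease that degrades viral RNA, rose from 3.11, 4.86 and 6.15 CPM to 7.29, 15.4 and 24.2 CPM (1.71, SE 0.28, adjusted p = 0.000143). Oas3 rose from 102, 165 and 228 CPM to 175, 390 and 488 CPM (1.15, SE 0.21, adjusted p = 0.000419). The Oas3 groups overlapped only through Tim4- replicate 1, at 175 CPM. Helz2, a helicase and nuclear receptor coactivator, fell, from 70.3, 80.6 and 98.7 CPM to 37.1, 61.0 and 72.4 CPM (-0.57, SE 0.16, adjusted p = 0.0146).

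The other ISGs called higher in Tim4- KCs were Isg15 (1.14), Oasl2 (0.78), Xaf1 (0.70), Zbp1 (0.57), Herc6 (0.52), Dtx3l (0.50), Dhx58 (0.48), Parp12 (0.39), Irf9 (0.38), Ifi35 (0.38), Ddx58 (0.37), Rtp4 (0.29) and Parp9 (0.28). Among them were 3 of the 5 sensors and 3 of the 4 genes of the PARP and DTX3L group, but none of the IFIT, Mx or TRIM genes. The IFIT genes were at 0.42, 0.17 and 0.14, Mx1 at 0.09 and Mx2 at -0.72, Irf7 at 0.20, Stat2 at 0.30 and Rsad2 at 0.21. Irf7, with 409, 1002 and 1120 CPM in Tim4- KCs, overlapped the CRE- range on both sides. Oasl2 had 142, 183 and 238 CPM in CRE- and 129, 357 and 404 CPM in Tim4- KCs, where the lowest value is replicate 1. Usp18 (0.54), Oasl1 (0.60), Oas1a (0.42), Ifi27l2a (0.42), Oas2 (0.14), Cmpk2 (0.11), Bst2 (0.20), Ifih1 (0.15), Trim30a (0.09), Samd9l (0.01), Trim25 (-0.15), Trim30d (-0.20), Eif2ak2 (-0.27) and Parp14 (-0.38) were not called.

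Without replicate 1 of both CRE+ sorts, 21 ISGs were higher and 1 lower in Tim4- KCs, where 12.1% and 13.5% of all genes were, and the median over the ISGs went from 0.30 to 0.45. With KC replicates 1 to 4 alone, 5 were higher and 1 lower, where 9.04% and 9.82% of all genes were. Of the 17 ISGs called, 5 were called in every alternative analysis. KC markers (8 of 8, Timd4 of the sort among them) were 2.24 lower in Tim4- than in CRE- KCs on the mean log2 CPM scale (9576 to 11230 against 23842 to 26058 CPM, exact permutation test, adjusted p = 0.0140) and AM markers (8 of 8) 1.88 higher (561 to 802 against 382 to 1171 CPM, adjusted p = 0.0140). In the AM list, mean Siglecf went from 4.51 to 290 CPM and Itgax from 7.38 to 78.5 CPM. Marco fell from 602 to 256 CPM and Fabp1 from 24.0 to 18.5 CPM. The paper reports SiglecF on KCs that had deleted Zeb2. Liver endothelial markers (6 of 6) were 1.21 lower in Tim4- than in CRE- KCs on the mean log2 CPM scale (298 to 411 against 501 to 1511 CPM, exact permutation test, adjusted p = 0.0185), and hepatocyte markers (6 of 6) 0.87 lower (adjusted p = 0.0431). Monocyte markers differed by 0.50 (adjusted p = 0.226), although Ccr2, the chemokine receptor of incoming monocytes, went from a mean of 4.96 to 115 CPM. Markers of plasmacytoid dendritic cells differed by 0.78 (adjusted p = 0.250), with Siglech at 0.253 CPM in Tim4- KCs. Whether these cells had a part in the ISG levels was not tested.

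Tim4+ KCs of CRE+ mice had fewer differences from the same CRE- samples. Of 39 ISGs, 2 were higher and 1 lower, where 3.63% of the 12500 genes were higher and 2.46% lower, and the median log2 fold change was 0.0080 over the ISGs and -0.0031 over all genes. The 2 were Isg20 and Ifi44, both more than 2-fold higher, where 1.94% of all genes were. Isg20 had 6.32, 9.76 and 17.5 CPM in Tim4+ KCs (log2 fold change 1.18, SE 0.28, adjusted p = 0.0122) and lay above CRE- KCs without overlap, the 1 ISG to do so, where 3.10% of all genes did, and 0 lay below, where 1.76% did. Ifi44 had 50.03, 72.3 and 112 CPM (1.02, SE 0.22, adjusted p = 0.00514), and its lowest sample was just under the highest CRE- sample. Helz2 had 36.4, 53.7 and 72.9 CPM (-0.65, SE 0.16, adjusted p = 0.0195), with 1 sample inside the CRE- range. The log2 fold changes of the other 36 lay between -0.48 (Mx2) and 0.71 (Oas3). Without replicate 1 of both CRE+ sorts 4 were higher and 1 lower, where 4.07% and 2.75% of all genes were, and the median over the ISGs was 0.07. With KC replicates 1 to 4 alone edgeR called 0 of 39, where 1.91% of all genes were higher and 0.863% lower, and the median was -0.08. At an unadjusted p under 0.05 these replicates had 2 higher and 2 lower, where 6.8% and 5.08% of all genes were. Over all replicates limma-voom and DESeq2 each called 3 higher and 1 lower. With limma-voom 3.72% of all genes were higher and 3.13% lower, and with DESeq2 5.01% and 3.46%. KC markers were 0.73 lower in Tim4+ than in CRE- KCs and AM markers 1.47 higher (exact permutation tests, adjusted p = 0.0140 for each). In the AM list, mean Siglecf went from 4.51 to 168 CPM and Marco from 602 to 1602 CPM, while Krt79 was at 0 in both groups. T cell markers (6 of 6) were 1.32 higher in Tim4+ than in CRE- KCs (30.0 to 54.0 against 17.1 to 36.8 CPM in sum, exact permutation test, adjusted p = 0.0185).

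The Tim4+ and Tim4- samples share replicate numbers, and the direct comparison gave 4 ISGs higher in Tim4- than in Tim4+ KCs and 0 lower, where 3.84% of all genes were higher and 7.62% lower. At an unadjusted p under 0.05, edgeR had 17 higher and 0 lower, where 11.1% and 13.7% of all genes were, limma-voom had 18 and 0 (11.5% and 14.8% of all genes) and DESeq2 16 and 0 (12.4% and 14.1%). The median log2 difference was 0.32 over the ISGs and 0.0084 over all genes, and 35 of 39 differences were positive. Ifi44 was higher by 1.05 (SE 0.22, adjusted p = 0.00260), Xaf1, a partner of the apoptosis inhibitor XIAP, by 0.52 (SE 0.15, adjusted p = 0.0244), Dtx3l by 0.41 (SE 0.11, adjusted p = 0.0180), and Rtp4 by 0.33. Xaf1 had 35.3, 46.7 and 59.4 CPM in Tim4+ and 47.9, 68.4 and 82.5 CPM in Tim4- KCs, and Dtx3l had 159, 167 and 205 CPM and 159, 245 and 271 CPM. All 39 ISGs overlapped between the sorts, where 1.31% of all genes lay above without overlap and 4.46% below. Ifi44 was the 1 ISG called and more than 2-fold higher, where 0.440% of all genes were, and 0 were called more than 2-fold lower, where 5.01% were. With the replicate number as a block, Zbp1 and Usp18 were called as well, 6 in all, where 4.95% of all genes were higher. This comparison was the one most affected by replicate 1: without that library of both sorts, 10 ISGs were higher and 0 lower, where 4.1% and 7.5% of all genes were, and without Tim4- replicate 1 alone 17 were higher, where 5.4% of all genes were. Left out, Tim4+ replicate 3 gave 8 higher (3.74% of all genes) and each of Tim4+ replicates 1 and 4 and Tim4- replicates 2 and 3 gave 2 (2.66% to 3.19% of all genes). Liver endothelial markers were 1.82 lower in Tim4- than in Tim4+ KCs on the mean log2 CPM scale (298 to 411 against 886 to 2580 CPM in sum) and KC markers, Timd4 among them, 1.52 lower (9576 to 11230 against 13644 to 15235 CPM), each with an adjusted p of 0.0140 in an exact permutation test, and their part in the ISG levels was not tested.

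**Figure D3:**
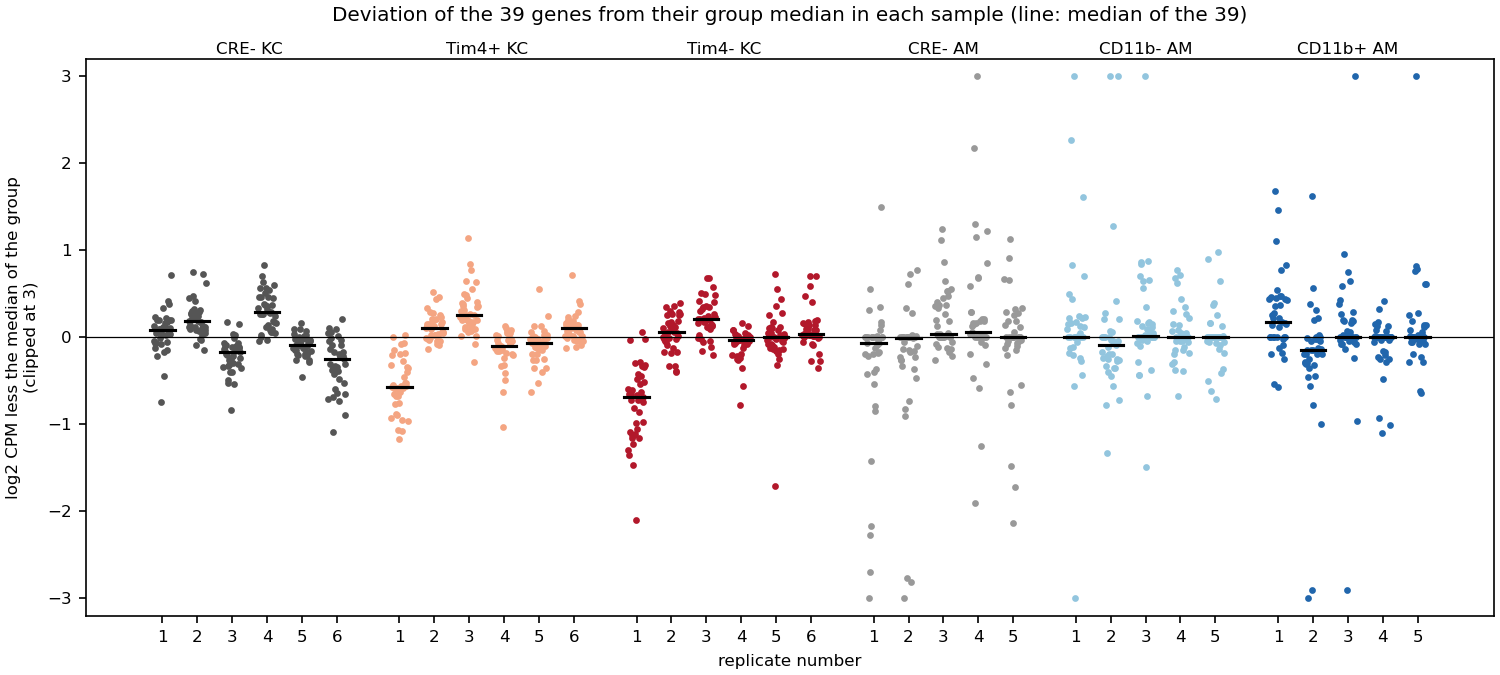
Log2 CPM of the 39 ISGs less the median of the sample's group (vertical axis, clipped at 3), with 1 point per gene, samples along the horizontal axis by group and replicate number, and a line at the median of the 39. The line of replicate 1 is at -0.57 in Tim4+ and -0.68 in Tim4- KCs, and those of the 15 AM samples lie between -0.15 and 0.18.

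Summed over the 39 genes, the level ran from 3464 to 6122 CPM in Tim4+ and from 3868 to 7619 CPM in Tim4- KCs, both overlapping the CRE- range of 3756 to 5841 CPM. In AMs the sum was 748 to 816 CPM in CD11b- cells, inside or near the CRE- range of 737 to 866 CPM, and 1008 to 1197 CPM in CD11b+ cells, above it in every sample. Trim25 was a large part of the AM sums, with means of 248 CPM in CRE-, 167 in CD11b- and 192 in CD11b+ cells. Its fall offsets rises of other ISGs in the sum.

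The change on Zeb2 deletion was compared between the tissues directly, as the mean change of both CRE+ KC groups less that of both CRE+ AM groups. Of 39 ISGs, 8 had a smaller change in KCs and 0 a larger one, where 9.52% of 13294 genes had a smaller change and 19.5% a change that differed in either direction. Over 2-fold smaller were 6, where 4.65% of genes were, and over 2-fold larger 0, where 3.50% were. At an unadjusted p under 0.05, edgeR had 12 smaller and 0 larger, where 14.7% and 15.9% of all genes were, limma-voom had 8 and 1 (15% and 16.1% of all genes) and DESeq2 14 and 0 (16.5% and 15%). The median difference was -0.31 on the log2 scale over the ISGs and 0.01 over all genes. Oasl2 differed by -3.96 (SE 0.40, adjusted p = 3.12e-09) and Usp18 by -3.11 (SE 0.45, adjusted p = 3.11e-06), followed by Oas3 at -1.78, Irf7 at -1.40, Ifit2 at -1.22, Rtp4 at -0.93 and Oas1a at -0.75. Mx2 had the largest value at -5.37 (SE 1.40, adjusted p = 0.00595), whose size depends on the small count the fit adds, since its counts were 0 in CRE- AMs and few in CRE+ AMs. Apart from Mx2, these genes were at over 40 CPM in every CRE- KC sample, and apart from Oas1a they were at under 10 CPM in every CRE- AM sample. Limma-voom called 3 of the 39, where 9.66% of all genes had a smaller change and 10.2% a larger one. Once genes under 10 counts in any of the 33 samples were left out, 4 were called, where 11.5% and 11.7% of all genes were. Without replicate 1 of both CRE+ KC sorts, 8 were smaller and Dhx58 larger in KCs, where 10.3% and 10.9% of all genes were.

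**Figure D4:**
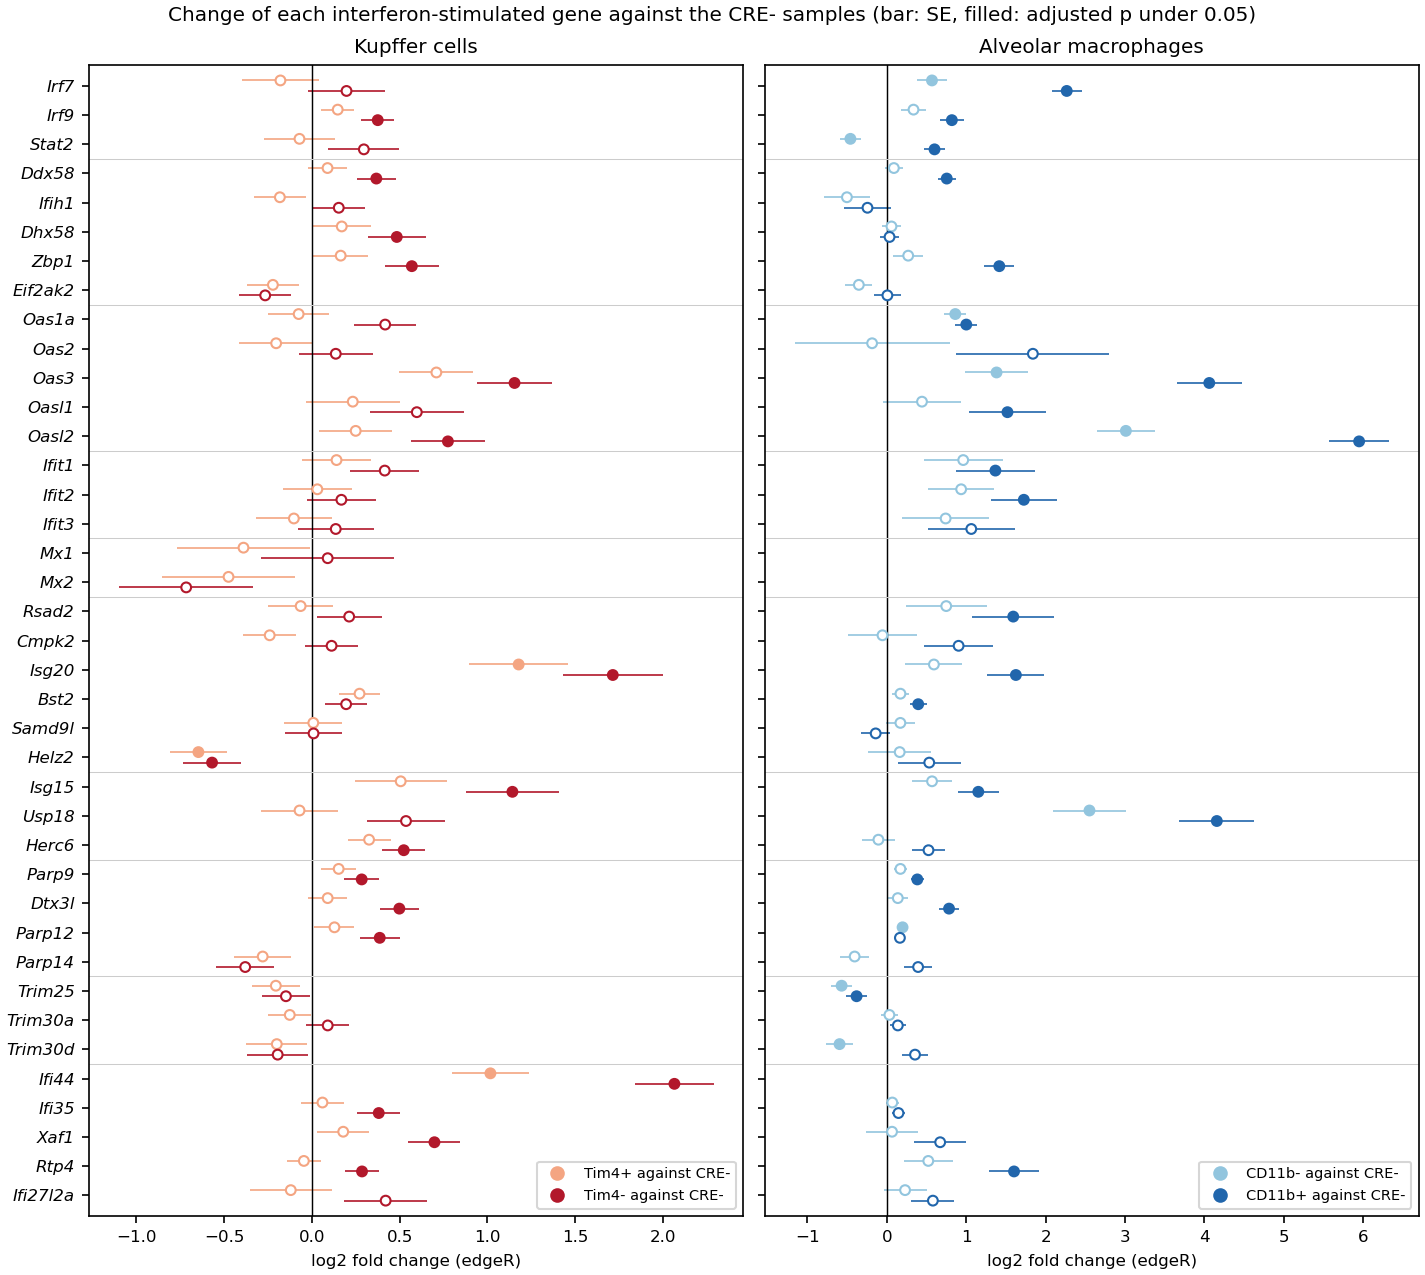
Log2 fold changes of the ISGs against CRE- cells in Tim4+ and Tim4- KCs and in CD11b- and CD11b+ AMs, in rows by gene, with the SE as a bar and filled points for genes called at an adjusted p under 0.05. Oasl2, Usp18 and Oas3 reach 4.06 to 5.95 in CD11b+ AMs, and the KC points lie between -0.72 and 2.07.

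Most ISGs of CD11b+ AMs had a mean under that of CRE- KCs. The mean level in CRE- AMs was 12.6% of that in CRE- KCs for the median ISG, and the mean in CD11b+ AMs was 20.4% of it. Oasl2 went from 0.687% of the CRE- KC mean in CRE- AMs to 42.3% in CD11b+ AMs, Oas3 from 1.21% to 20.4% and Usp18 from 0.544% to 9.95%. Irf7 went from 0.650% to 3.15% and Isg15 from 7.09% to 15.9%. Isg20 went from 37.4% to 117%, and Trim25, above the KC mean throughout, from 194% to 150%. Among the 3 AM groups the mean was highest in CD11b+ cells for 32 of the 39, and among the 3 KC groups it was highest in Tim4- cells for 31. Many of these neighbours in order did not differ beyond their spread, as the tests above give.

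**Figure D5:**
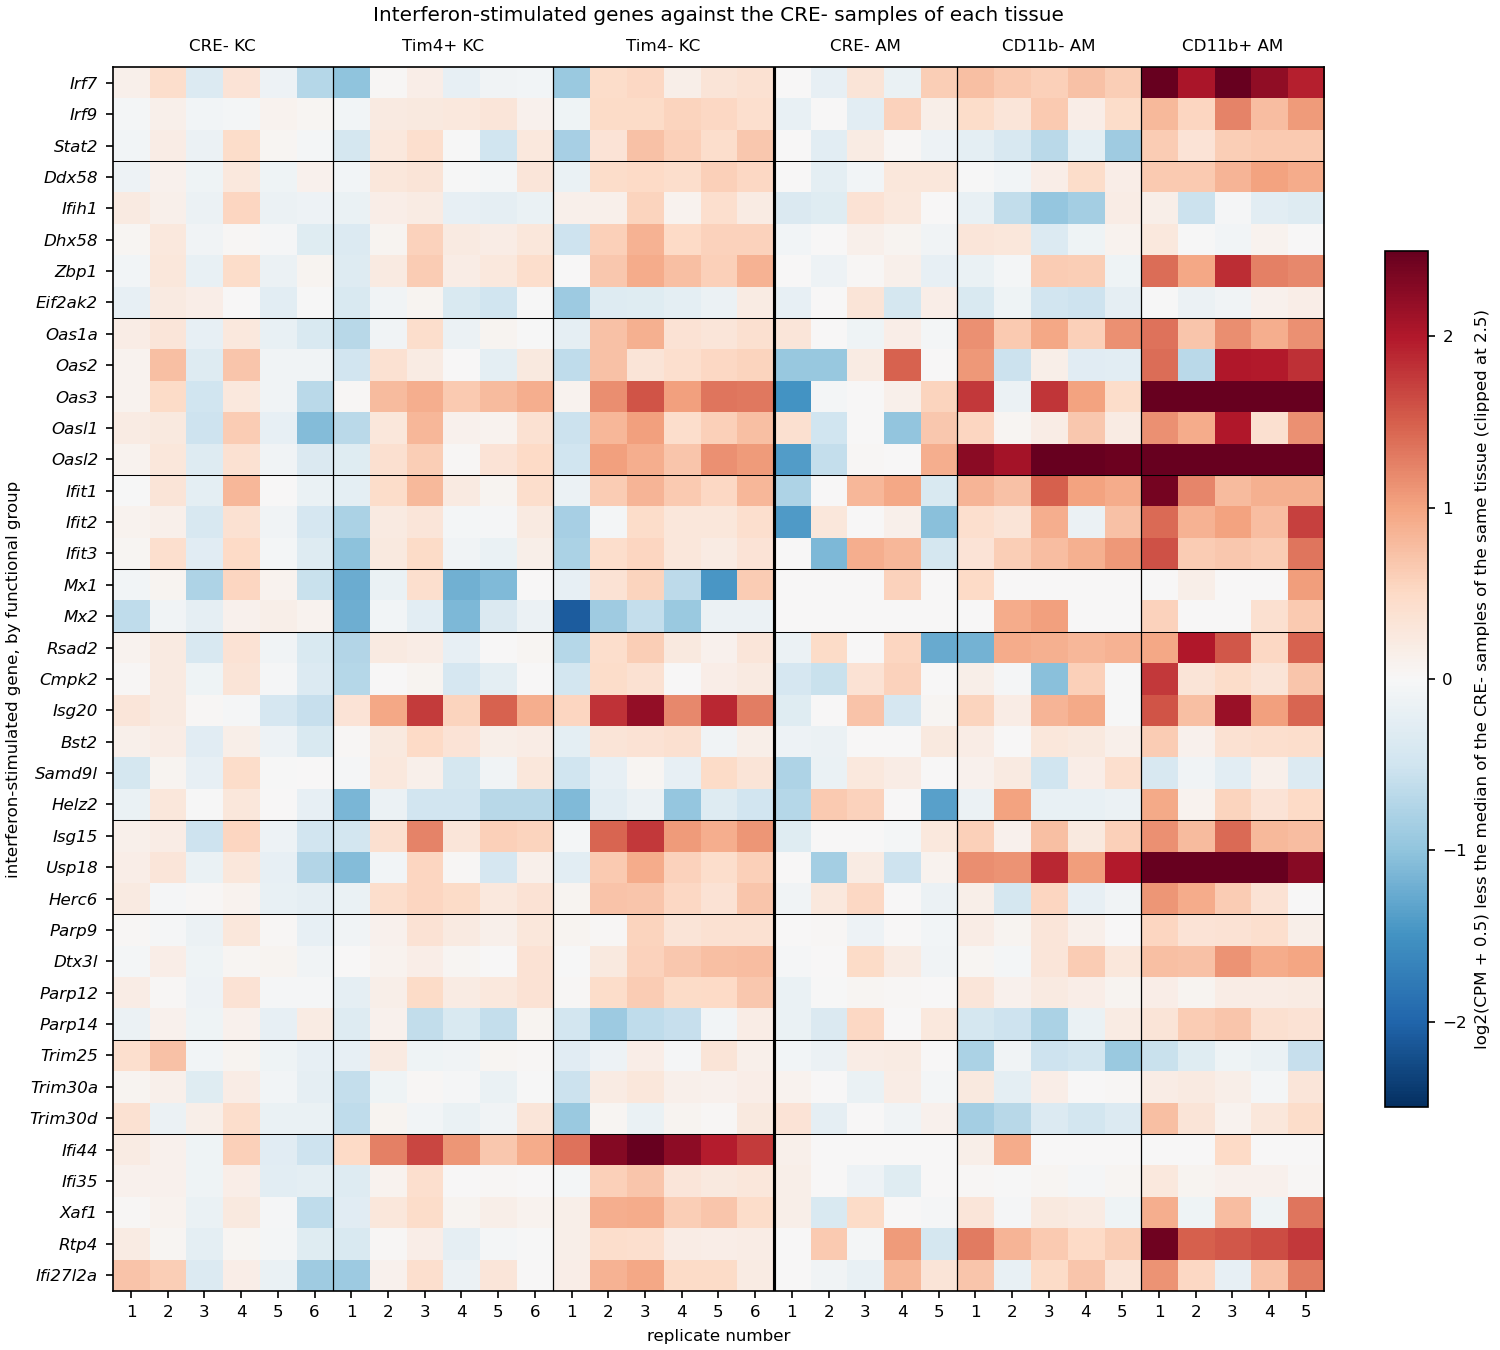
Log2(CPM + 0.5) of the 39 ISGs (rows) in all 33 samples (columns, by group) less the median of the CRE- samples of the same tissue, with the color scale clipped at 2.5. Among the strongest colors are those of Oasl2 in CD11b- and CD11b+ AMs, of Oas3, Usp18 and Irf7 in CD11b+ AMs and of Ifi44 in Tim4- KCs.

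Genes around the ISGs in the pathway were followed from lists of gene symbols. Beside their counts stand the shares of all genes called in the same comparison, which were 33.3% higher and 29.9% lower in CRE- KCs against CRE- AMs, 22.8% and 20.5% for CD11b+ sorts against CRE- AMs, 13.3% and 12.4% for CD11b- sorts, 12.2% and 13.2% in Tim4- KCs, and 3.63% and 2.46% in Tim4+ KCs. None of 21 interferon genes passed the low-count filter in any comparison, and Ifnb1 had 0 counts in every group. Of 9 receptor and kinase genes tested, 8 had a higher level in CRE- KCs and 1 in CRE- AMs, with the receptor chain Ifnar2 at 2.51 and the interferon-γ receptor chain Ifngr1 at 1.95 on the log2 scale. In CD11b+ AMs 7 of the 9 were higher than in CRE- AMs, led by Jak2 (1.32), Il10rb (1.32) and Ifngr1 (0.62). In CD11b- AMs 2 were higher, and in Tim4- KCs 4 were higher and 1 lower. Among sensors, adaptors and upstream IRFs, 7 of 19 were higher and 5 lower in CD11b+ AMs. Ikbke, a kinase that activates IRF3 and IRF7, had 4.48, 3.38, 4.07, 1.30 and 4.55 CPM in CRE-, 14.0, 14.3, 13.7, 10.9 and 16.5 CPM in CD11b- and 86.6, 66.9, 80.6, 51.7 and 69.0 CPM in CD11b+ AMs, so that the 3 groups did not overlap. Its log2 fold changes from CRE- AMs were 1.96 and 4.30. The RNA receptor Tlr8 fell by 1.47 in CD11b+ AMs.

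Of other interferon-induced genes, outside the 39, 29 of 55 were higher and 7 lower in CD11b+ AMs, 7 and 9 in CD11b- AMs, 18 of 60 higher and 4 lower in Tim4- KCs, and 5 and 2 in Tim4+ KCs. Ifit1bl2, a relative of Ifit1, had 0.358 CPM in CRE- AM replicate 1 and 0 in the other 4 samples, 11.2, 23.3, 38.3, 44.5 and 26.8 CPM in CD11b- and 114, 123, 118, 146 and 147 CPM in CD11b+ AMs. It was also higher in Tim4+ (3.64) and Tim4- KCs (3.69), so that it was called in all 4 comparisons with CRE- cells. Ifitm3, a membrane protein that blocks virus entry, had 0.941, 0.783, 1.11, 1.06 and 1.53 CPM in CRE- and 25.2, 13.9, 9.97, 19.1 and 31.4 CPM in CD11b+ AMs. Negative regulators were higher for 6 of 14 and lower for 3 in CD11b+ AMs, among them Socs1 (2.23) and Socs3 (1.45), inhibitors of JAK signaling. Genes that answer interferon-γ more than type I interferon, mainly of MHC class II, were higher for 5 of 7 in CD11b+ AMs, with Cd74 at 1.63, and for 6 of 9 in Tim4- KCs, with H2-Eb1 at 1.31.

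Many of the ISGs lie side by side in the genome, and neighbours did not always move alike. In GRCm38, 17 of the 39 fall into 7 clusters with gaps under 200000 bases. The OAS cluster at chr5:120730333-120907521 holds Oas2, Oas3 and Oas1a. In CD11b+ AMs Oas3 rose by 4.06 there and Oas1a by 1.0. The pair Oasl2 and Oasl1 at chr5:114896936-114937915 rose by 5.95 and 1.52. Ifit2, Ifit3 and Ifit1 share chr19:34550694-34650009, with log2 fold changes between 1.06 and 1.73, and Rsad2 and Cmpk2 share chr12:26442746-26479837, with 1.59 and 0.90. Parp14, Dtx3l and Parp9 lie at chr16:35832874-35972605, where in Tim4- KCs Dtx3l and Parp9 rose and Parp14 was at -0.38. The Mx pair at chr16:97447035-97560900 and the Trim30a and Trim30d pair at chr7:104409025-104507849 complete the list.

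Some levels are uncertain for lack of unique sequence. Of the 50-base windows of their transcripts, 57.57% for Oas1a, 51.24% for Ifit3, 23.84% for Herc6, 13.65% for Rtp4, 8.29% for Trim30d and 7.13% for Ifit1 also occur in another gene, chiefly Oas1g for Oas1a and Ifit3b for Ifit3, so reads could be lost or split between them. Exons of Irf7 overlap Phrf1 and those of Parp9 overlap Dtx3l on the other strand, and Irf9 overlaps Rnf31. The strand setting of the counting was not given in the sources used here, so the reads of these pairs may not be told apart.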

How the data were processed

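The authors trimmed the reads with Trimmomatic 0.35, checked them with FastQC 0.11.4, mapped them to mm10 with TopHat2 2.1.0 (SAMtools 0.1.18, versions from the submitters' processing notes) and counted them with HTSeq-count. They deposited raw read counts per gene symbol, 24421 genes and 5 tally rows per sample, and the tally rows were left out. The annotation and the strand setting were not given in the sources used here. Groups came from the sample labels, which do not say that samples of a group are separate mice, so p-values measure the spread between these samples.

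Tests ran in edgeR 4.0.16 under R 4.3.3 (TMM, filterByExpr, quasi-likelihood test) within KCs (18 samples), within AMs (15), between CRE- cells (11) and, for the interaction, over all 33. Adjusted p-values are Benjamini-Hochberg values over all genes tested, and SE is the fold change over the square root of F. The study itself used limma voom. Mean log2 CPM (prior 0.5) of marker lists was compared by a two-sided exact permutation test, adjusted over 84 tests. Alternatives were limma-voom (limma 3.58.1), DESeq2 1.42.0, RLE factors, other filters, a 2-fold limit, other samples in the fit, a replicate block and samples left out. Leaving out replicate 1 of both CRE+ KC sorts was chosen after seeing the data. The code was tested on simulated data.

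The 39 genes, the pathway lists and the marker lists were chosen with earlier results of these data known. In each comparison the 3 called ISGs with the largest rise and the 3 with the largest fall are given in full, and of the pathway lists those with the 3 largest changes may be named. Ifnb1, Socs3, Ccr2 and other markers, and Zbp1, Usp18 and Dhx58 where a single alternative called them, were named after their values were seen. Positions are from GENCODE M21 (GRCm38) and promoters from RefSeq (GRCm38.p6). Counting intervals and floors cover counting error only.

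Same-numbered Tim4+ and Tim4- KC samples deviated together from their group means (r from 0.112 to 0.251 across genes, every pair over 0.1), so replicate numbers were taken to pair these samples. The number of calls with the block is given beside that comparison. Its fold changes, SEs and p-values come from the fit without the block. The numbers come from the sample titles. The other comparisons had at least 1 pair under 0.1. Replicates differed beyond sampling noise, with a chi-square per gene of at least 12.83 within groups.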

Additional observations from a re-analysis of the deposited data

Results flagged for a closer look

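Samples were compared with the others of their group by Dixon's test of the highest and lowest value, for the ISGs described in full and for their summed level. Of 83 sets of values, 9 had an outlying sample. Chance gives about 1 in 20 in independent sets, but these sets share libraries, so that rate does not apply. A set with a single non-zero value is always flagged, as for Ifi44 in CRE- and CD11b+ AMs. In KCs all of them were replicate 1. In Tim4- KCs it was lowest in the summed level of the 39 ISGs (3868 CPM), in Irf7 (409 CPM) and in Stat2 (84.4 CPM), and in Tim4+ KCs in Oas3 (167 CPM). In AMs, Helz2 was highest in CD11b- replicate 2 (7.40 CPM) and Stat2 lowest in CD11b+ replicate 2 (35 CPM). Ifi44, with a few counts in all, was highest in CD11b- replicate 2 (0.450 CPM), CD11b+ replicate 3 (0.210 CPM) and CRE- replicate 1 (0.0448 CPM).

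The mean change of both CRE+ groups differed between KCs and AMs for 8 ISGs by edgeR's interaction term, each with a smaller value in KCs: Mx2 by -5.37, Oasl2 by -3.96, Usp18 by -3.11, Oas3 by -1.78, Irf7 by -1.40, Ifit2 by -1.22, Rtp4 by -0.93 and Oas1a by -0.75 on the log2 scale. The cause was not tested.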

How the results depend on the processing

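No ISG called in the main analysis reversed its direction in that comparison in the alternatives run. All 39 calls between CRE- KCs and CRE- AMs held in each that tested the gene. ISGs without a call could change sign, as Mx1 did in Tim4- against CRE- KCs, at -0.14 with the replicate block. The number of ISGs called, of those tested, moved as follows. With a 2-fold limit it fell to 4 in Tim4- KCs (from 17), 1 between the Tim4 sorts (from 4), 3 in CD11b- AMs (from 9), 13 in CD11b+ AMs (from 20) and 8 between the CD11b sorts (from 14). In that order 3.43%, 0.440%, 3.98%, 9.57% and 6.85% of all genes were over 2-fold higher and 5.39%, 5.01%, 2.51%, 5.68% and 3.30% lower. With KC replicates 1 to 4 alone it was 0 in Tim4+ KCs (from 3), 6 in Tim4- KCs and 2 between the sorts, with fewer samples in the fit. Of all genes 1.91%, 9.04% and 3.08% were then higher and 0.863%, 9.82% and 6.17% lower. Without replicate 1 of both CRE+ KC sorts it was 5 in Tim4+ KCs and 10 between the sorts, where 4.07% and 4.1% of all genes were higher and 2.75% and 7.5% lower. For the interaction (8) it was 3 with limma-voom, where 10.2% of all genes were higher and 9.66% lower. With at least 10 counts in every sample, which tests fewer genes, it was 4, where 11.7% and 11.5% of all genes were. With 1 sample left out at a time, calls ranged from 2 to 4 in Tim4+ KCs, 13 to 22 in Tim4- KCs, 2 to 17 between the Tim4 sorts, 7 to 10 in CD11b- AMs, 18 to 22 in CD11b+ AMs, 12 to 15 between the CD11b sorts, 39 to 39 between CRE- cells and 7 to 12 for the interaction. In that order the shares of all genes higher were 2.98% to 3.86%, 10% to 12.3%, 2.25% to 5.4%, 11.1% to 12.8%, 21.1% to 21.9%, 17.4% to 19.2%, 31.9% to 32.9% and 8.86% to 10.9%. The shares lower were 1.57% to 2.25%, 11.1% to 13.6%, 5.77% to 8.52%, 10.4% to 12.1%, 18.7% to 19.5%, 14% to 15.9%, 27.9% to 30.4% and 8.69% to 10.4%. With the replicate block the calls were 4, 18, 6, 9, 21, 14, 39 and 10 in that order, and pairing moved no count by over 1.5 times. Of all genes 4.77%, 13.1%, 4.95%, 13.9%, 23.5%, 20.7%, 31.7% and 10.9% were higher with the block. Lower were 3.22%, 15.3%, 8.52%, 13.4%, 21.3%, 17.5%, 29% and 10.4%. Other scalings moved the median of all genes by under 0.1. The KC comparisons depended most on single libraries, and 0 of 3 calls in Tim4+ KCs and 1 of 4 between the Tim4 sorts held in every alternative. Mx1, Mx2 and Ifi44 had too few counts to test in AMs, in libraries of 17454078 to 23945366 counts, inside the range of the KC libraries.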
